A study of Mus musculus with 8 samples.

Results

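Spermatogonial stem cells of the mouse that had passed through serial transplantation were compared with cells of young donors after the same time in culture. The serial-transplant group has 2 arrays, labelled with a donor age of 1500 days and 14 to 18 months of culture. The young group has 3 arrays of cells from donors aged 8 days, also cultured for 14 to 18 months. These 5 arrays were taken from a series of 8 by donor and culture time, and 19938 genes were compared on them. The other 3 arrays hold cells of donors aged 8 days after 7 to 10 weeks of culture and serve as a reference level. All cells were cultured, and no group was taken directly from a testis. Donor age and serial transplantation differ together between the groups and cannot be told apart. The labels give no mouse strain, nor do they state that replicates come from different donors or cultures. The p-values therefore reflect only how these arrays scatter, and that scatter may be technical.

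Spermatogonial stem cells are the germ cells of the testis that renew themselves and supply spermatogenesis. In culture they are kept by GDNF, which signals through Gfra1 and Ret, and by FGF ligands. When transplanted into the testis of a host that has lost its own germ cells, a stem cell settles at the edge of a tubule and founds a colony, and cells recovered from colonies can be transplanted again. Serial transplantation therefore lets a germ line persist in living hosts beyond the life of its first donor.

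The germ cell identity on the labels was checked against Ddx4, Dazl, Gfra1, Ret, Zbtb16, Etv5, Sall4, Uchl1 and Epcam. On the 5 long-culture arrays these genes had log2 signals between 9.82 (Epcam) and 12.81 (Dazl), against 6.94 for the median of all probe sets, and none was dim in either group. All values below are log2 RMA signals, so that a difference of 1 is a doubling. In bulk samples such as these, fewer cells of a type and less RNA per cell cannot be told apart. Array medians lay between 6.90 and 6.98. Young long-culture replicate 1 stood apart: on the first principal component of the 5 long-culture arrays, which took 46.5% of the variance, it lay at -28.9, the other young arrays at 3.5 and -8.7 and the serial-transplant arrays at 17.2 and 16.8. The second component took 24.5%, and its extremes were the serial-transplant arrays, at 15.6 and -21.3. The correlation of serial-transplant replicate 1 with young replicate 2 (r = 0.996 over probe sets) was above that with its own replicate (0.995). Gene differences of at least 0.3, and medians of at least 0.05, that shrank by over 1.5 times without young replicate 1 are therefore given with and without it.

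The serial-transplant cells had lower signals of the developmental factors Zic1, Barhl2 and Eomes, of the growth factor Igf2 and other paternally expressed genes, and of the integrin chain Itga1. For the genes named here the differences ran from -2.66 for Zic1 to -1.06 for Itga1 on the log2 scale. The median of all measured paternally expressed genes was -0.25. Signals of Clstn1 (0.82), of the keratins Krt8 (0.75) and Krt18 (0.90), of most cholesterol synthesis genes and of most bright genes of chromosome 8 lay higher. The median of the markers of undifferentiated spermatogonia was 0.02. No single gene passed the test, so these are measured values and not calls. In limma with Benjamini-Hochberg adjustment over 28944 probe sets, 0 of 19938 genes (0%) had an adjusted p under 0.05, and the smallest adjusted p was 0.0627. Before adjustment, 1438 genes (7.21%) had a p under 0.05, of which 816 (4.09%) were higher and 622 (3.12%) lower in the serial-transplant cells. The median half-width of a gene's 95% interval was 0.28 log2, which limits what could be detected. Weighting the arrays by their quality gave 16 calls, fitting only the 5 long-culture arrays gave 13, leaving out young short-culture replicate 2 gave 8, and averaging all probe sets of a gene gave 6. Across all alternatives 21 genes were called at least once, 4 higher and 17 lower. Igf2, Itga1 and Zic1 were called in 5 of them, Aldh1a3, Ebf2 and Grin2a in 4. The differences below are therefore given as values, and no gene is said to have changed.

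By size, 19 genes differed at least 2-fold with no overlap between the 2 and the 3 arrays, 9 of them higher (0.0451% of genes) and 10 lower (0.0502%). At 1.5-fold the counts were 68 higher (0.341%) and 106 lower (0.532%). Of these, 48 of the higher genes and 68 of the lower also lay outside the range of the short-culture arrays. The like share over all genes is not given here, so these counts are description only. Young replicate 1 was the young array farthest from the serial-transplant arrays in 60 of the 68 higher genes and 92 of the 106 lower ones. Without it, 30 and 57 of them still differed 1.5-fold. The plot of the difference against the level shows that the lower side reaches farther from 0 than the higher side.

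**Figure D1:**
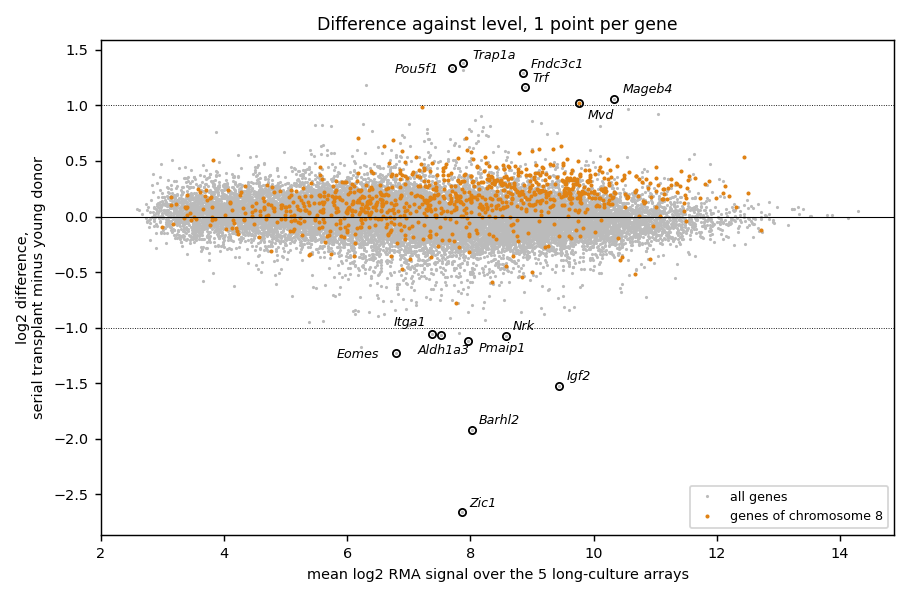
Log2 difference of each gene, serial-transplant minus young donor after long culture (vertical axis), against its mean log2 RMA signal over the 5 long-culture arrays (horizontal axis). Zic1 lies lowest at -2.66, dotted lines mark a 2-fold difference, and genes of chromosome 8 (orange) lie mostly above 0.

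The most negative difference was that of Zic1, a zinc-finger transcription factor of the developing nervous system and neural crest, on chromosome 9. Its log2 signal was 6.49 and 6.04 in the serial-transplant arrays, 9.52, 8.30 and 8.96 in the young long-culture arrays and 9.05, 7.86 and 8.34 in the short-culture arrays. Both serial-transplant arrays lay under 6.94, the level taken here as the border of dim signals, and all arrays of young donors lay above it. The difference was -2.66 ± 0.35 log2 (SE, n = 2 and 3), or 6.32-fold, with a 95% interval from -3.43 to -1.89 and an adjusted p of 0.0627 (limma, Benjamini-Hochberg). It was -2.37 without young replicate 1, -2.88 without serial-transplant replicate 1 and -2.44 without replicate 2.

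Other developmental transcription factors lay lower too. They were picked after their values were seen, so their number supports nothing. Barhl2, a homeobox factor of the nervous system, read 6.83 and 6.91 in the serial-transplant arrays against 9.27, 8.14 and 8.95 in the young long-culture arrays. Its short-culture signals of 8.32, 7.09 and 7.60 ran from near the serial-transplant arrays into the young long-culture range, and the difference was -1.92 ± 0.34 (limma, adjusted p = 0.225). Eomes, a T-box factor found in a subset of undifferentiated spermatogonia, read 5.92 and 6.20 against 7.56, 7.00 and 7.30, with 7.65, 7.16 and 7.20 after short culture. Both serial-transplant values of Eomes lay below all arrays of young donors, and the difference was -1.23 ± 0.19 (limma, adjusted p = 0.114). Ebf2, a helix-loop-helix factor of adipocyte and neural development, differed by -0.98 ± 0.14 (limma, adjusted p = 0.0932). Its short-culture signals of 6.78, 6.48 and 6.46 were near the serial-transplant mean of 6.41 ± 0.017 (SD, n = 2), and the young long-culture arrays stood apart at 7.37, 7.21 and 7.59. Foxd3, a forkhead factor of the neural crest and early embryo, had the same order and a difference of -0.83 ± 0.15 (limma, adjusted p = 0.225).

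The promoter sequences of Zic1 and Itga1, the lower genes with the largest difference and the smallest p, are shown for their CpG sites, the places where vertebrate DNA is methylated. Each is the 250 bases before the start of the gene in RefSeq on build GRCm38.p6, 5′ to 3′ on the gene's strand, with CG pairs in capitals. The window of Zic1 is chr9:91365769-91366018 on the minus strand and that of Itga1 is chr13:115101965-115102214 on the minus strand.
Zic1: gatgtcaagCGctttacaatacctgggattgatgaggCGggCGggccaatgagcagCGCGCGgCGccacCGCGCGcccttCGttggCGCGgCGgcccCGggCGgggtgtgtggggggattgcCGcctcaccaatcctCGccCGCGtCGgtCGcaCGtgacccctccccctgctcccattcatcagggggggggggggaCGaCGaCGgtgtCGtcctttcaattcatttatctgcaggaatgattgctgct
Itga1: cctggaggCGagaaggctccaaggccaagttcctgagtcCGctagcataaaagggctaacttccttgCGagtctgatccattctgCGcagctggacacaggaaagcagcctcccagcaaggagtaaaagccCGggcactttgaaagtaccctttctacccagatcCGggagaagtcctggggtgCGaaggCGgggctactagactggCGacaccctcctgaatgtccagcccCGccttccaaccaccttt

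The Zic1 window holds 27 CG pairs and 66.0% G and C, and the Itga1 window 10 CG pairs and 57.6%. Over the 27025 genes of the promoter table the median was 6 CG pairs, with quartiles of 2 and 16, so Zic1 lies above the upper quartile and Itga1 between the quartiles. The Zic1 window also holds GGGCGG on at least 1 strand, as do 32.9% of all windows, and the Itga1 window does not. Neither holds TATAAA on either strand. Of the 10 genes with the smallest p, 5 in each direction, 8 were found in the table, and Aldh1a3 and Grin2a were not. The 5 higher genes had windows from 0 CG pairs (Olfr1230) to 38 (Clstn1). Methylation was not measured here.

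Itga1 encodes the integrin alpha 1 chain, a receptor for collagen and laminin, on chromosome 13. Its signal was 7.03 and 6.72 in the serial-transplant arrays, 8.04, 7.77 and 8.01 in the young long-culture arrays and 8.06, 7.84 and 7.80 in the short-culture arrays. The serial-transplant arrays lay below all arrays of young donors, with a difference of -1.06 ± 0.14 (SE, n = 2 and 3) and an adjusted p of 0.0627 (limma). Aldh1a3, which oxidises retinaldehyde to retinoic acid, read 6.78 and 6.71 against 7.97, 7.53 and 7.90, with 7.27, 7.04 and 7.19 after short culture. The difference was -1.06 ± 0.14, and the short-culture arrays lay between the groups. Grin2a, an NMDA receptor subunit, read 5.56 and 5.68 against 6.42, 6.45 and 6.52, with 6.01, 5.78 and 5.83 after short culture. All its signals were below that border of 6.94, and its difference of -0.84 ± 0.11 had an adjusted p of 0.0627 in limma, as did that of Aldh1a3.

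**Figure D2:**
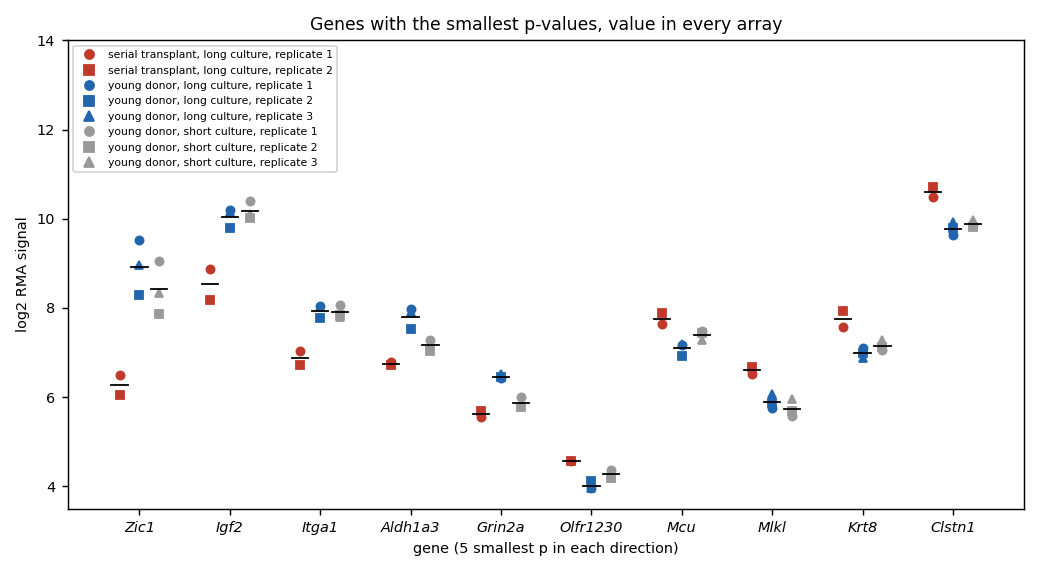
Log2 RMA signal (vertical axis) of the 5 genes with the smallest p in each direction, 1 point per array, with a line at each group mean. Red points are serial-transplant arrays, blue young long-culture and grey young short-culture arrays. The red and blue points do not overlap for any of the 10 genes, and red and grey are apart too.

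Igf2, the fetal insulin-like growth factor expressed from the paternal allele, lay lower in the serial-transplant cells. Its signal was 8.88 and 8.17 in the serial-transplant arrays, 10.20, 9.79 and 10.16 in the young long-culture arrays and 10.40, 10.03 and 10.10 in the short-culture arrays. The serial-transplant arrays lay below all arrays of young donors, by 2.88-fold against long culture (-1.52 ± 0.20 log2; limma, adjusted p = 0.0627). The receptor Igf1r read 10.46 and 10.38 against 10.68, 10.47 and 10.63, a difference of -0.17 with a 95% interval from -0.42 to 0.07. Igf2r, which clears Igf2, differed by -0.10 (95% interval from -0.44 to 0.23). The binding protein Igfbp2 read 8.95 in both serial-transplant arrays against 8.31, 8.36 and 8.44, a difference of 0.58 ± 0.15 (limma, adjusted p = 0.419). Irs1, the adaptor below the receptor, differed by -0.65 ± 0.18.

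Of 21 measured genes expressed from the paternal allele, 1 was higher and 7 were lower at an unadjusted p under 0.05, against 4.09% and 3.12% of all genes, and the median difference was -0.25 against 0.010 for all genes. Their arrays did not overlap in 2 genes that were higher and 9 that were lower, where 15.1% and 11.4% of all genes did so. None passed after adjustment. Besides Igf2, the lower genes were Nnat (-0.86), a small membrane protein of neurons and endocrine cells, Plagl1 (-0.74), a zinc-finger factor that slows growth, Peg10 (-0.71), a gene derived from a retrotransposon and needed in the placenta, the noncoding RNA Airn (-0.63), Sgce (-0.55) and Peg3 (-0.52). The higher gene was Mcts2, at 0.29. Over all alternatives the median stayed between -0.29 and -0.20.

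The imprinted genes differed among themselves in their short-culture level. Nnat read 7.42 and 7.48 in the serial-transplant arrays, 8.65, 7.96 and 8.33 in the young long-culture arrays and 6.96, 6.93 and 7.37 after short culture, so that only the young long-culture arrays were high. Peg10 had the same order, with group means of 9.07 ± 0.10 (SD, n = 2), 9.78 ± 0.15 (n = 3) and, after short culture, 8.40 ± 0.31 (n = 3). Plagl1 read 9.33 and 8.62 against 9.83, 9.49 and 9.81, and its short-culture signals of 10.00, 10.49 and 9.95 were the highest. Genes expressed from the maternal allele had a median of -0.05 over 23 measured members. At an unadjusted p under 0.05, 0 were higher and 2 lower, against 4.09% and 3.12% of all genes. The lower ones were Grb10 (-0.53), an adaptor that restrains insulin-type receptors, and Atp10a (-0.24). H19, the neighbour of Igf2, was not analysed here.

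Markers of fibroblasts were lower in 1 of the serial-transplant arrays. Over the 42 measured markers the mean log2 signal was 8.89 and 8.43 in serial-transplant replicates 1 and 2 and 8.94, 8.89 and 8.86 in the young long-culture arrays. The median difference was -0.26, with 7 of 42 positive, against 52.8% of all genes. Of the 42 markers, 37 had a mean signal above 6.94, and of all such genes 45.7% were positive. At an unadjusted p under 0.05, 1 marker was higher and 2 were lower, against 4.09% and 3.12% of all genes. The median difference was -0.0093 without serial-transplant replicate 2 and -0.48 without replicate 1. Col1a1, the main collagen of fibroblasts, read 11.13 and 10.54 against 10.79, 11.12 and 11.03. Macrophage and leukocyte markers had mean signals between 5.65 and 5.73 in the 5 arrays and mast cell and cytotoxic granule genes between 4.85 and 5.02, both in the dim range in both groups. Igf2 differed by -1.17 without serial-transplant replicate 2, Plagl1 by -0.39, Grb10 by -0.35, Fst by -0.29 and Irs1 by -0.35, while the paternally expressed list kept its median within the range above. The part of the fibroblast signal in these values was not tested.

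**Figure D3:**
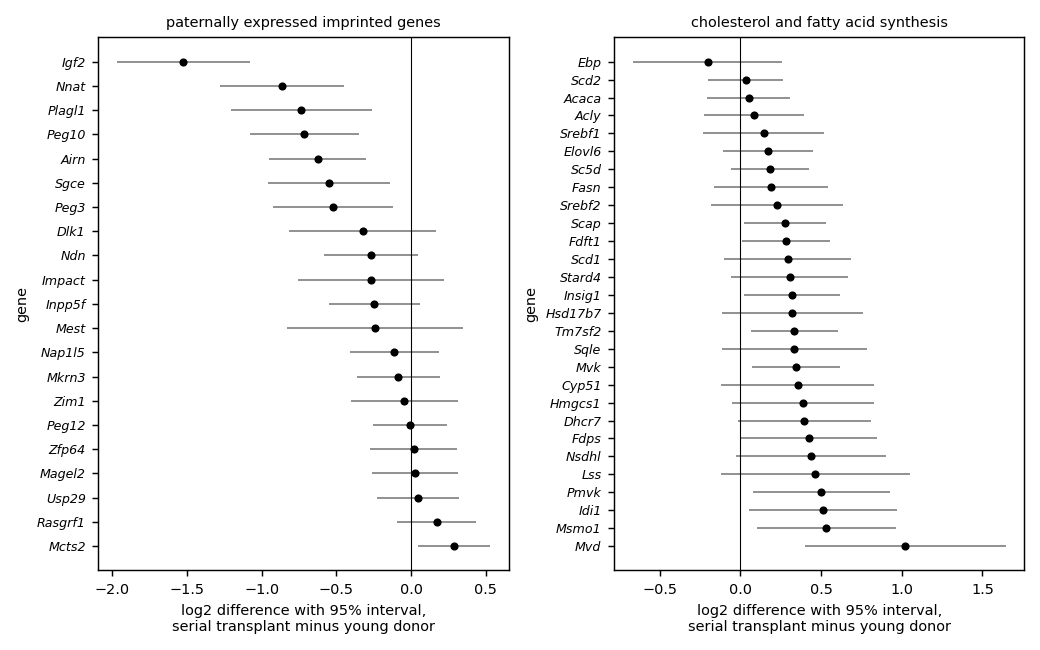
Log2 difference, serial-transplant minus young donor after long culture, with its 95% interval from limma (horizontal axis), for the measured paternally expressed imprinted genes (left) and genes of cholesterol and fatty acid synthesis (right). Igf2 lies at -1.52 and 27 of the 28 genes on the right have a positive difference.

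Genes of cholesterol and fatty acid synthesis lay higher in the serial-transplant cells as a list, with a median difference of 0.32 over 28 measured members. The difference was positive in 27 of 28, against 52.8% of all genes. At an unadjusted p under 0.05, 10 were higher and 0 lower, against 4.09% and 3.12% of all genes. The arrays did not overlap in 18 that were higher and 1 that was lower, against 15.1% and 11.4% of all genes. None passed after adjustment in limma. The per-array medians of the list, as deviations from the mean of the 5 long-culture arrays, were 0.07 and 0.31 in the serial-transplant arrays and -0.25, -0.03 and -0.04 in the young arrays. The short-culture arrays had -0.35, -0.69 and -0.15, all below the serial-transplant arrays. The median difference was 0.21 without serial-transplant replicate 2, 0.44 without replicate 1 and 0.25 without young replicate 1.

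The members span the pathway. Hmgcs1, which makes HMG-CoA, read 11.66 and 12.03 against 11.08, 11.71 and 11.59, so the groups overlapped, and its difference was 0.39 (95% interval from -0.06 to 0.83), or 0.20 without young replicate 1. Mvd, which forms isopentenyl pyrophosphate from mevalonate pyrophosphate, read 10.25 and 10.49 against 8.69, 9.73 and 9.62, with 8.73, 8.58 and 9.29 after short culture. Its difference was 1.02 ± 0.28 (limma, adjusted p = 0.426) and 0.69 without young replicate 1. Idi1, the isomerase of the next step, differed by 0.51 (0.33 without serial-transplant replicate 2), and Msmo1, which removes methyl groups from sterols, by 0.53 (0.35 without young replicate 1). The exception was Ebp, a sterol isomerase, at -0.20. Mvd and Msmo1 lie on chromosome 8, and without the members on that chromosome the list median was 0.31.

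The smallest p on the higher side was that of Clstn1, a membrane protein of the calsyntenin family, on chromosome 4. Its signal was 10.48 and 10.71 in the serial-transplant arrays, 9.63, 9.79 and 9.92 in the young long-culture arrays and 9.85, 9.81 and 9.98 after short culture. The serial-transplant arrays lay above all arrays of young donors, with a difference of 0.82 ± 0.12 (limma, adjusted p = 0.114). Krt8, a keratin of simple epithelia, read 7.57 and 7.93 against 7.11, 6.99 and 6.88, with 7.06, 7.11 and 7.28 after short culture (0.75 ± 0.13; limma, adjusted p = 0.225). Its partner Krt18, which lies next to it on chromosome 15 among the measured genes, read 8.39 and 9.04 against 7.57, 8.06 and 7.81, a difference of 0.90 ± 0.22 (0.58 without serial-transplant replicate 2). Both keratins were above all arrays of young donors. Over the 23 measured markers of simple epithelium the median was 0.04, with 12 positive, so the list as a whole did not stand apart.

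The other higher genes by p were Mlkl (0.71), the effector of necroptosis, on chromosome 8, Mcu (0.66), the pore of the mitochondrial calcium uniporter, and the olfactory receptor gene Olfr1230 (0.56), whose signals of 4.57 and 4.56 against 3.96, 4.12 and 3.95 lay in the dim range. Trf, the iron carrier transferrin and a product of Sertoli cells, read 9.45 and 9.72 against 7.94, 8.65 and 8.68, a difference of 1.17 ± 0.27 (limma, adjusted p = 0.359). Over the 27 measured Sertoli markers the median was 0.02, and their mean signals were 6.99 and 6.91 against 6.86, 6.95 and 6.89. Lat, a signalling adaptor known from T cells, differed by 0.81 ± 0.18 and was called in 2 of the alternatives.

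Several of the 2-fold higher genes are germline genes that were low in young replicate 1. Pou5f1, the pluripotency factor also expressed in undifferentiated germ cells, read 8.30 and 8.72 in the serial-transplant arrays, 5.68, 8.03 and 7.80 in the young long-culture arrays and 8.11, 7.88 and 8.26 after short culture. The groups did not overlap, and the difference was 1.34 with young replicate 1 and 0.59 without it. Trap1a, a tumour antigen gene of the X chromosome, read 8.48 and 8.96 against 6.13, 7.99 and 7.88, and its difference of 1.38 was 0.78 without that array. Shoc1, a meiotic crossover factor, differed by 1.32 and by 0.65 without it. Mageb4, a MAGE family gene of germ cells, differed by 1.06 and by 0.60. Its short-culture signals of 11.17, 11.03 and 11.14 lay above both serial-transplant arrays, at 10.965 and 10.970. The lower genes depended less on young replicate 1: without it the difference was -1.02 for Itga1, -1.45 for Igf2, -1.68 for Barhl2 and -1.09 for Eomes. Fndc3c1 on the X chromosome differed by 1.29, and by 0.999 without young replicate 1. It read 9.49 and 9.77 against 7.77, 8.51 and 8.75, with 6.78, 7.33 and 7.85 after short culture, and was thus lowest in the short cultures.

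Core germ cell genes had a median difference of 0.15 over 35 measured members, with 7 higher and 0 lower at an unadjusted p under 0.05 (4.09% and 3.12% of all genes). Ddx4, the germ cell RNA helicase, read 11.98 and 11.94 against 10.87, 11.74 and 11.59, a difference of 0.56 (0.30 without young replicate 1). Mov10l1, a helicase of the piRNA pathway, differed by 0.97 and by 0.55 without it. Dnd1, an RNA-binding factor needed for germ cell survival, read 9.44 and 9.48 against 8.90, 9.19 and 9.09 and differed by 0.40. Dazl, an RNA-binding protein of germ cells, read 12.75 and 12.67 against 12.77, 12.62 and 12.81, and its sign was not stable across alternatives. Without serial-transplant replicate 2 the list median was 0.07.

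Markers of undifferentiated spermatogonia did not shift as a list. The median was 0.02 over 37 measured members, with 4 higher and 2 lower at an unadjusted p under 0.05 (4.09% and 3.12% of all genes). The arrays did not overlap in 7 genes each way, where 15.1% and 11.4% of all genes were higher or lower without overlap. Higher were Utf1 (0.72), a chromatin factor, Tspan8 (0.69, or 0.46 without serial-transplant replicate 2), a surface tetraspanin, Neurog3 (0.32), a factor of cells about to differentiate, and Lin28a (0.28), an RNA-binding protein. Lower were Eomes and Ccnd2 (-0.26), a cyclin of the G1 phase. The GDNF receptor pair gave Gfra1 at -0.14 (95% interval from -0.46 to 0.19) and Ret at -0.35 (from -0.82 to 0.11). Of the targets of GDNF, Etv5 differed by 0.09 (from -0.31 to 0.49), Bcl6b by 0.12 (from -0.29 to 0.52) and Lhx1 by -0.09 (from -0.64 to 0.46). Zbtb16, a repressor needed for self-renewal, differed by -0.10 (from -0.39 to 0.19), and Id4 by -0.02 (from -0.32 to 0.27).

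Nanos2, an RNA-binding protein that holds cells in the undifferentiated state, read 6.83 and 6.87 against 7.33, 6.91 and 7.18, a difference of -0.29 ± 0.14. Its serial-transplant values lay below all arrays of young donors by a small margin. Thy1, a surface marker used to enrich stem cells, differed by 0.14 (95% interval from -0.14 to 0.43). Mapk10, a JNK kinase, read 8.46 and 7.84 against 6.84, 8.08 and 7.55, so the groups overlapped, with a difference of 0.66 (0.33 without young replicate 1). Tex19.1, which keeps retrotransposons in check in the germ line, read 6.50 and 5.54 against values up to 6.52, while the short-culture arrays read 9.95, 9.47 and 9.87. Both long-culture groups thus lay far below short culture, and between them the groups overlapped. Cdkn2a, the locus of the p16 and p19 cell cycle inhibitors, read 8.63 and 8.64 against 8.69, 8.53 and 8.73, a difference of -0.01 (95% interval from -0.25 to 0.22).

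Genes of differentiating spermatogonia had a median of 0.11 over 20 measured members, with 5 higher and 1 lower at an unadjusted p under 0.05 (4.09% and 3.12% of all genes). Of the higher genes, Neurog3 is also in the list of undifferentiated spermatogonia, and Uchl1 served above as a general germ cell marker. Sohlh1, a transcription factor of early differentiation, read 8.64 and 8.76 against 7.89, 8.12 and 8.38, a difference of 0.58 ± 0.14. Its short-culture signals of 8.58, 8.59 and 8.69 were close to the serial-transplant signals. Stra8, the gene that retinoic acid induces before meiosis, read 8.71 and 8.93 against 7.78, 8.24 and 8.54, with 6.65, 6.81 and 7.69 after short culture, a difference of 0.63 ± 0.28 (limma, adjusted p = 0.685). Uchl1, a ubiquitin hydrolase of spermatogonia, read 12.20 and 12.16 against 11.64, 11.66 and 11.82. Kit, the receptor that marks differentiating cells, read 10.06 and 10.17 against 10.32, 10.26 and 10.35, a difference of -0.20 (95% interval from -0.59 to 0.19). The retinoic acid list had a median of 0.06 over 23 members, with 2 genes higher (Rdh11 at 0.59, or 0.34 without serial-transplant replicate 2, and Stra8) and 2 lower (Aldh1a3, and Crabp2 at -0.77, which carries retinoic acid to its receptor).

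Meiotic prophase genes had a median of 0.07 over 31 measured members. At an unadjusted p under 0.05, 4 were higher and 4 lower, against 4.09% and 3.12% of all genes. Stag3, a meiotic cohesin subunit, read 10.13 and 9.95 against 10.52, 10.70 and 10.84, a difference of -0.65 ± 0.16, and lay below all arrays of young donors. Meiob, a single-strand DNA-binding protein of meiotic repair, differed by -0.63 at signals under 5. Zcwpw1, a reader of the histone marks at recombination hot spots, read 10.03 in both serial-transplant arrays against 10.79, 10.62 and 10.71. It was called in 1 alternative and picked for that. Mei1 (0.77, or 0.43 without young replicate 1) and Syce2 (0.44) lay higher, so the list held both directions. Syce2 lies on chromosome 8, where 19.7% of the genes were higher at that p. Its median was 0.02 without young replicate 1.

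Integrin, laminin and adhesion genes had a median of 0.0086 over 36 members. At an unadjusted p under 0.05, 0 were higher and 3 lower, against 4.09% and 3.12% of all genes. Besides Itga1 the lower genes were Itgb8 (-0.60, or -0.37 without serial-transplant replicate 2) and Lamb1 (-0.47). Itgb8 is an integrin chain that activates TGF-beta, and Lamb1 a laminin chain of basement membranes. Of 48 genes of TGF-beta, BMP and activin signalling, 3 were higher and 8 lower at that p, against 4.09% and 3.12% of all genes. Their median was -0.06, and -0.04 without young replicate 1. Fstl1, a secreted follistatin-like protein, read 9.38 and 9.02 against 10.22, 9.88 and 9.93, a difference of -0.81 ± 0.20. Fst, the activin antagonist, differed by -0.60 and Id3, a target of BMP signals, by -0.55. Among 33 genes of GDNF and FGF signalling 0 were higher and 1 was lower at that p, against 4.09% and 3.12% of all genes. The lower one was Fgfr2 at -0.36, whose signals lay under 6.94 in all arrays. Flt3, a receptor related to Kit, read 7.51 and 7.55 against 8.85, 7.76 and 8.06, with 6.54, 6.33 and 6.59 after short culture.

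Pmaip1, the p53 target that encodes the death factor Noxa, read 7.11 and 7.47 against 8.84, 8.04 and 8.35, with 8.41, 8.13 and 8.24 after short culture. The serial-transplant arrays lay below all arrays of young donors, by -1.12 ± 0.20 (limma, adjusted p = 0.245). It was the only gene among 24 measured p53 targets with an unadjusted p under 0.05. Over all genes 7.21% had such a p in either direction. The median of the p53 targets was -0.03. Of 22 measured cell cycle inhibitors and G1 regulators 0 were higher and 3 lower at that p, against 4.09% and 3.12% of all genes. The lower ones were Cdkn2c at -0.39, Cdkn1b at -0.37 and Ccnd2. The median of these 22 genes was -0.09, and -0.04 without young replicate 1. The list of G2 and M phase genes gave a median of -0.12, with 4 of 41 positive, against 52.8% of all genes. All 41 had a mean signal above 6.94, and of such genes 45.7% were positive. The list had 0 genes at an unadjusted p under 0.05 in either direction. The median of that list was -0.010 without serial-transplant replicate 1, -0.23 without replicate 2 and -0.04 without young replicate 1. DNA repair gave a median of -0.03 over 45 genes with 0 in either direction, and senescence and secretory factors one of -0.03 over 33, with Plat (0.61) and Igfbp2 higher.

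**Figure D4:**
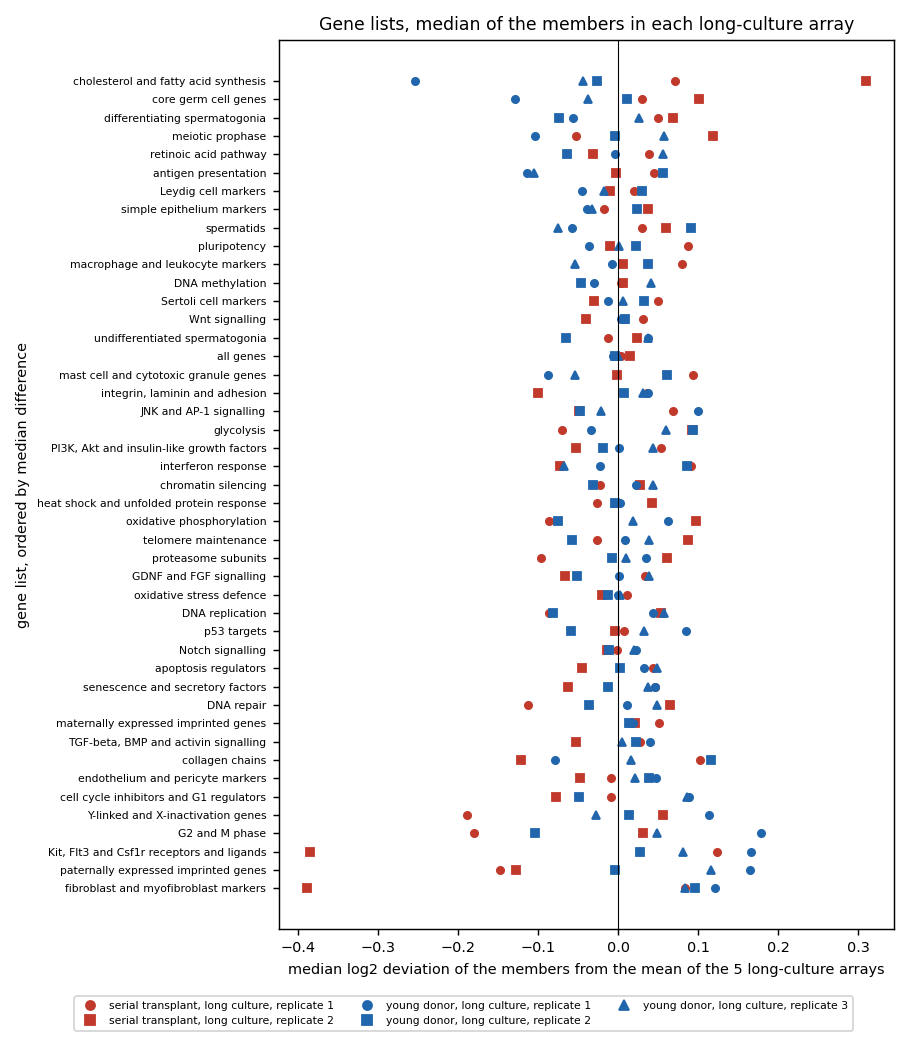
Median of the members of each of 44 gene lists and of all genes in each of the 5 long-culture arrays, as log2 deviation from the mean of those arrays (horizontal axis), in the order of the median difference. Both serial-transplant arrays (red) lie right of all young arrays (blue) for cholesterol and fatty acid synthesis and left of them for paternally expressed imprinted genes, while for fibroblast markers only serial-transplant replicate 2 is apart.

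Differences were not spread evenly over the chromosomes. Chromosome 8 stood out by its count: 188 of its 955 genes (19.7%) were higher at an unadjusted p under 0.05, against 4.09% of all genes, and 13 were lower. It holds 4.79% of the genes and supplied 188 of the 816 that were higher at that p. Among its 617 bright genes, those with a mean above 6.94, 536 (86.9%) had a positive difference, against 43.2% of such genes on the other chromosomes. Their median difference was 0.20, and 0.16 without young replicate 1. The median deviation of chromosome 8 from all genes was 0.17 and 0.18 in the serial-transplant arrays, -0.14, 0.045 and -0.0031 in the young long-culture arrays and -0.09, -0.11 and -0.04 after short culture. Both serial-transplant arrays lay above all arrays of young donors. An exact two-sided permutation test of this single value over the 5 arrays gave p = 0.1, the smallest that 10 splits allow, and 0.364 after adjustment over 20 chromosomes. With 10 splits the test could not reach a p under 0.05, so no conclusion is drawn from it. Chromosomes 1, 3, 14 and X had the same p. The group difference of the deviations was 0.21 on chromosome 8, and on those it was -0.04, -0.03, -0.03 and -0.06.

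The shift ran along the whole of chromosome 8. In 8 consecutive blocks of 77 or 78 genes the median difference lay between 0.15 and 0.23, and between 72.7% and 94.8% of the genes were positive. Plat, a plasminogen activator, Mlkl, Mvd and Msmo1 are among its genes, and Plat read 9.60 and 9.81 against 8.98, 9.13 and 9.16. Chromosome 15 had a median of 0.09, with deviations of 0.15 and 0.14 in the serial-transplant arrays, -0.04, 0.10 and 0.10 in the young long-culture arrays and -0.15, -0.20 and -0.08 after short culture. Without young replicate 1 its median was 0.05. Chromosome 13 (0.07) and chromosome 19 (-0.07) differed mainly by young replicate 1, which lay at -0.15 and 0.15, and without it their medians were 0.04 and 0.0087. The X chromosome had a median of -0.09, with 29.6% of its genes positive and deviations of -0.08 and -0.05 in the serial-transplant arrays, and -0.02 when its dim genes were included. Without young replicate 1 it was -0.06. On the remaining chromosomes the medians lay between -0.06 and 0.00069, and between -0.03 and 0.0069 without that array.

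**Figure D5:**
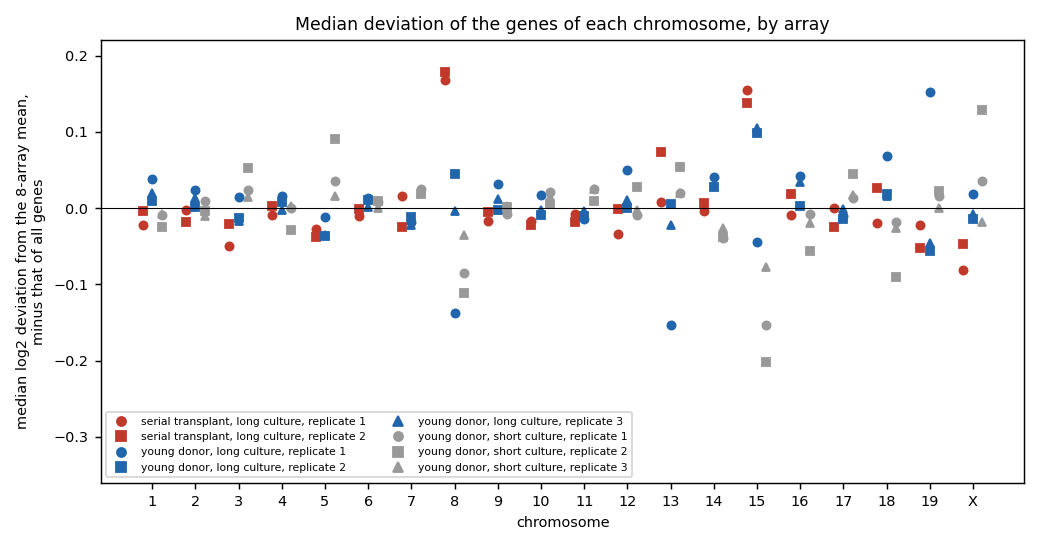
Median log2 deviation of the genes of each chromosome from the 8-array mean, minus that of all genes (vertical axis), by chromosome (horizontal axis), for bright genes. On chromosome 8 the serial-transplant arrays (red) lie at 0.17 and 0.18 and every array of young donors (blue and grey) at 0.045 or lower.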

How the data were processed

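Total RNA of 8 samples was extracted with Trizol and measured as biotin-labelled cRNA on Affymetrix arrays (per the labels' protocols). The authors deposited 1 log2 signal per probe set and array. Per the submitters' processing notes these came from RMA in Partek 6.4, a method that subtracts background, makes arrays comparable and combines the probes of a set. It gives no detection call, so a low signal can be background. For its settings and for the annotation's build, nothing is given in the sources used here. Of 35557 probe sets, 6613 whose identifiers run before the first named one were left out as controls, which is inferred from the numbering alone. Of the 28944 tested, 21789 have 1 gene symbol, 1621 several and 5534 none. A gene was represented by its brightest probe set with 1 symbol, which gave 19938 genes, with names and chromosomes from RefSeq (GRCm38.p6).

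Groups were compared in R 4.3.3 with limma 3.58.1 (lmFit over all 8 arrays with 1 coefficient per group, contrasts, eBayes, giving 5 residual degrees of freedom and 6.28 from the prior). Tests were two-sided, and p-values of all probe sets were adjusted together by Benjamini-Hochberg, with a threshold of 0.05. The step was tested on simulated data. Errors of differences are standard errors from limma. Genes were named by rule: the 5 smallest p of a direction in which under 5 genes passed, up to 4 members of each of 44 gene lists by p, and 18 fixed genes. Genes with a 2-fold difference and no overlap, those called in an alternative and a few list members were added after their values were seen. The gene lists, the rule and the comparison were chosen with earlier results of these data known. Lists and chromosomes are described by counts and medians beside those of all genes, and chromosome medians use bright genes, with a mean over 6.94. The alternatives were an intensity trend, a robust prior, array weights, fewer arrays, dim probe sets left out, quantile normalization, centring, a fold requirement, a stricter threshold, the replicate number as a block, probe set means and each array left out. Leaving out list members on chromosome 8, leaving out young replicate 1 for counts without overlap and taking all genes of a chromosome were added after seeing the data. Scanner files and scan dates were not analysed here.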

Additional observations from a re-analysis of the deposited data

How the results depend on the processing

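The count of genes at an adjusted p under 0.05 was 0 in limma and 0 with an intensity trend, a robust prior, dim probe sets left out, quantile normalization, centring, a fold requirement or a threshold of 0.01. It was 16 with array weights, 13 with the 5 long-culture arrays alone and 6 with probe set means, which bring fewer tests. Leaving out 1 array at a time gave between 0 and 8, with 8 without young short-culture replicate 2. A fit without a serial-transplant array assumes that the remaining one varies like the other groups. With the replicate number as a block the count was 4. Whether the numbers pair the samples could not be settled. Deviations of same-numbered arrays correlated at 0.08, 0.18 and 0.10 between the young groups. For pairs with a serial-transplant array they correlated between -0.27 and -0.05. With 2 or 3 arrays per group such correlations cannot decide it. The cause of the differing counts was not tested. Among the 44 list medians, 6 were positive and 5 negative under every alternative, cholesterol synthesis and core germ cell genes among the former and paternally expressed genes and fibroblast markers among the latter. Of those that took both signs, undifferentiated spermatogonia were at -0.04 without young long-culture replicate 2. Without serial-transplant replicate 1, retinoic acid genes were at -0.011, adhesion at -0.12 and DNA repair at 0.05. Without replicate 2, meiotic genes were at -0.03, TGF-beta signalling at 0.012, maternally expressed genes at 0.016 and senescence factors at 0.04.

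Some named genes took the other sign when 1 array was left out, with differences in these ranges. Lowest without serial-transplant replicate 1 and highest without replicate 2 were Col1a1 (-0.43 to 0.15), Tex19.1 (-0.71 to 0.24), Pdgfra (-1.12 to 0.11) and Nr2f2 (-0.71 to 0.13). Lowest without replicate 2 and highest without replicate 1 were Psme2 (-0.011 to 0.48), Hsd3b6 (-0.076 to 0.40), Lig4 (-0.011 to 0.45), Xist (-0.015 to 0.29), Lhx1 (-0.22 to 0.042), Id4 (-0.063 to 0.014), Prkdc (-0.34 to 0.0041) and Eif2s3y (-0.40 to 0.0024). Cdh1 ran from -0.074 without replicate 1 to 0.79 without replicate 2. Dazl ran from -0.076 to 0.022 and was 0.035 with the block, 0.022 without serial-transplant replicate 2 and 0.015 without young long-culture replicate 3. Cdkn2a ran from -0.074 to 0.025 and was 0.0049 with the block and 0.0087 when young long-culture replicate 1 was left out. None of these passed the test in any fit run. Signals under the lowest quartile of the arrays (5.32 to 5.52) can be background, so differences such as those of Olfr1230 and Meiob are less firm.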

Other observations

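Some lists had a median near 0 and single members at an unadjusted p under 0.05. In JNK and AP-1 signalling (median 0.0073 over 31 genes) Batf (0.51), Mapk10 (0.66), Map3k13 (0.55) and Maff (0.43) lay higher and Map3k7 (-0.34) lower. Without young replicate 1, Mapk10 was at 0.33 and Map3k13 at 0.33, and without serial-transplant replicate 2 Batf was at 0.25. In oxidative stress defence (median -0.02 over 40) the peroxidase Gpx3 (-0.84) and the metallothionein Mt2 (-0.52) lay lower. The heme oxygenase Hmox1 (0.42) and the glutathione reductase Gsr (0.34) lay higher. Of these 40 genes 6 lie on chromosome 8, Hmox1 and Mt2 among them, and the median without the 6 was -0.03. In glycolysis the kinase Pdk1 lay lower (-0.63) and hexokinase Hk2 higher (0.54, or 0.32 without young replicate 1). In telomere maintenance (median -0.013 over 20) 4 genes were higher and 0 lower, against 4.09% and 3.12% of all genes, namely Naf1 (0.44), Acd (0.54), the telomerase RNA Terc (0.35) and Terf2 (0.27). Naf1, Acd and Terf2 lie on chromosome 8, where 19.7% of the genes were higher at that p, and Acd was at 0.31 without serial-transplant replicate 1. Of that list, 4 members lie on chromosome 8, and its median without them was -0.03.

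Among genes that differed 1.5-fold without overlap, 2 pairs were neighbours among the measured genes. One was Krt8 and Krt18, and the other was Mir20a (0.77) and Mir19b-1 (0.63) on chromosome 14, whose precursor RNAs are made from 1 shared transcript. Without serial-transplant replicate 2 these were at 0.33 and 0.18.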
